A study of Mus musculus with 7 samples.

Results

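The ErbB receptor system of mammary epithelium was examined in tumours grown from transplants of Met1 and DB7. Both are mouse mammary tumour lines that arose in animals carrying a polyoma virus middle T transgene. The system was taken as 10 genes: the receptors Egfr, Erbb2 and Erbb3, the ligands Areg, Ereg, Hbegf, Tgfa, Btc and Nrg1, and the inhibitor Errfi1. They were chosen as known parts of the system, but with earlier results of these data known. Every probe set whose platform annotation gave one of these symbols alone was used. This gave 18 probe sets for 8 of the 10 genes, of 22626 probe sets and 12393 named genes on the array. No probe set used here carried the symbol Areg or Nrg1, so amphiregulin and neuregulin 1 were not analysed here.

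The data were 3 arrays of Met1 and 4 of DB7, each of total RNA from a tumour labelled as a transplant of the line. Met1 is known to metastasise readily and DB7 seldom, and DB7 is known to carry a form of middle T whose docking sites for PI3-kinase were mutated. Both groups therefore carry middle T, but in different forms, and each is 1 tumour line. Line, form of middle T and metastatic behaviour cannot be told apart. The series' design text speaks instead of tumours from first-generation outcrosses with AKR/J and DBA/2J. The sample labels, which name the lines, were followed. The sources used here do not give the host strain, the age of the animals or any treatment of the tumours, nor whether the arrays of a line came from different animals. The p-values thus rest on the spread among these arrays, part of which may be technical. Values are log2 expression as deposited, and a difference is Met1 minus DB7.

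ErbB receptors are tyrosine kinases that pair when a ligand binds and signal mainly through the Ras-ERK and PI3-kinase pathways. EGF, TGF-alpha, amphiregulin, HB-EGF, betacellulin and epiregulin bind the EGF receptor, and neuregulins bind ErbB3 and ErbB4, while ErbB2 has no known ligand of its own and serves as the partner of the others. In the mammary gland the EGF receptor and amphiregulin are known for duct growth, and ErbB4 for lactation. Middle T also feeds into these pathways from within the cell, by binding Src family kinases, Shc and PI3-kinase.

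Egfr and 2 of its ligands differed in opposite directions between the lines. Egfr was higher in Met1 by 2 of its 5 probe sets, by 2.3-fold and 1.3-fold. Btc and Hbegf were lower in Met1 by 1 of 2 probe sets each, by 1.44-fold and 1.34-fold. Erbb2, Erbb3, Errfi1, Ereg and Tgfa did not pass the test. In all, 4 of the 18 probe sets differed at an adjusted p under 0.05 in limma, beside 17.8% of all probe sets of the array. The 2 higher in Met1 stand beside 7.92% and the 2 lower beside 9.87% of all probe sets. At an unadjusted p under 0.05 in limma there were 6. The share of all probe sets at that threshold was not counted here, and it is at least the 17.8% above. The values of the lines did not overlap for 6 of the 18, 3 in each direction, against 27.5% of all probe sets. The median difference was -0.053 over the 18 and -0.048 over the whole array. As a group the system thus stood close to the array's background, and the description below concerns single genes.

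The promoters of the called genes for which sequence was used, Egfr and Btc, are shown because these genes differed in opposite directions. They are RefSeq sequences of GRCm38.p6, read 5′ to 3′ on the gene's strand, from 250 bases before to 50 bases after the annotated start. Capitals mark the motif TCCTCC on the strand shown; 6 of the 10 genes had a sequence in this table.
Egfr, chr11:16751953-16752252, plus strand: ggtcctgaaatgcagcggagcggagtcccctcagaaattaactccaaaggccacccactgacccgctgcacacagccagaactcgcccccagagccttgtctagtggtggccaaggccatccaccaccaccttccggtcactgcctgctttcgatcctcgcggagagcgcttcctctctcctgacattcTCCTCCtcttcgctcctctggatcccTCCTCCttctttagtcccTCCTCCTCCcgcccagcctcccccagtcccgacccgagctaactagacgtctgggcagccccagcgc
Btc, chr5:91402945-91403244, minus strand: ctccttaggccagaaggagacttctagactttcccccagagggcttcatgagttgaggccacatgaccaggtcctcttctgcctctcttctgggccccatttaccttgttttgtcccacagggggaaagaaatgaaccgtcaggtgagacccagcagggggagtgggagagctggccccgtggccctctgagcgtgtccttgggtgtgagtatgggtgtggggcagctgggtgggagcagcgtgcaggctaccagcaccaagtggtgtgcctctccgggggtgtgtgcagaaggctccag

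The Egfr window held 4 matches to TCCTCC, the last 2 of them overlapping, and the Btc window held 0 on either strand. Among the other members with a sequence, Erbb2, which did not pass, had 3 matches and Areg 1, while Tgfa and Errfi1 had 0. Whether the motif bears on the differences was not tested. The motif occurs on one strand or the other in 34.5% of 32851 promoters of the same length, and it was picked after the sequence had been read. A GC box, GGGCGG, occurred once in the Egfr window, on the strand not shown, and 0 times in that of Btc, against 35.7% of all promoters with at least 1. A TATA box (TATAAA), an AP-1 site (TGANTCA) and a STAT site (TTCNNNGAA) were searched on both strands and matched 0 times in either window. These are held by 13.6%, 7.81% and 8.3% of all promoters. The GC content was 62.3% for Egfr and 60.3% for Btc, against a median of 52.7% over all promoters.

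Egfr encodes the EGF receptor itself. Its probe set 1424932_at read 7.36, 7.22 and 7.48 in the Met1 arrays and 6.21, 6.09, 6.21 and 6.10 in the DB7 arrays. The lowest Met1 array thus lay above the highest DB7 array, and within each line the arrays were close together. The means were 7.35 ± 0.13 (SD, n = 3) and 6.15 ± 0.07 (SD, n = 4), a difference of 1.20 (SE 0.086; limma, adjusted p = 3.67e-05). The level lay above the array median in the 3 Met1 arrays and below it in the 4 DB7 arrays. The call held with any 1 array left out, but the difference did not pass a test against a 2-fold minimum.

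The brightest Egfr probe set, 1460420_a_at, gave the same direction at a smaller size. It read 9.11, 8.92 and 9.02 in Met1 and 8.66, 8.69, 8.71 and 8.48 in DB7, again with no overlap. The difference was 0.38 (SE 0.089; limma, adjusted p = 0.0171). This call was lost without Met1 replicate 1 (adjusted p = 0.0731), without Met1 replicate 3 (0.0706), without arrays DB7 1 and DB7 4 (0.055) and with the replicate number as a block (0.0782), where the difference stayed between 0.32 and 0.38.

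A further Egfr probe set, 1451530_at, read 6.59, 6.45 and 6.35 in Met1 and 6.34, 6.18, 6.26 and 6.05 in DB7. The groups narrowly did not overlap, and the difference of 0.26 (SE 0.094) did not pass in limma (adjusted p = 0.0916). The platform annotation cites the same sequence record for this probe set and for 1424932_at, the one with the largest difference, so probe sets of 1 record gave 1.20 and 0.26.

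The other pair of Egfr probe sets, also designed on 1 shared record, showed no such difference. Probe set 1432647_at read 7.05, 6.88 and 6.95 in Met1 and 6.90, 6.95, 6.95 and 7.0 in DB7, a difference of 0.01 with a 95% confidence interval from -0.15 to 0.18. For 1454313_at, which lay below the array median on every array, the difference was -0.01 with an interval from -0.28 to 0.25. Both intervals lie below that of 1424932_at, which ran from 1.01 to 1.40. The sources used here do not say which Egfr transcripts each probe set detects. The mean over all 5 probe sets differed by 0.37 (SE 0.073; limma on gene means, adjusted p = 0.00747).

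Egfr is also known as a gene of basal epithelium and of stromal cells, and in whole tumours a higher share of such cells and more RNA per cell cannot be told apart. The mean level of 10 basal and myoepithelial markers was 7.04 to 7.13 in Met1 and 6.68 to 6.84 in DB7. Of these markers 3 were higher in Met1 and 0 lower, against 8.25% and 10.7% of all genes, namely the integrin genes Itgb4 and Itga6 and the myosin kinase gene Mylk. Of the defining basal genes, Krt5 lay above the array median on every array and differed by 0.17 without passing (adjusted p = 0.191). Krt14 and Trp63, with Krt17, Cnn1 and Oxtr, lay below it on every array by their brightest probe sets, and another Trp63 probe set was higher in Met1 by 0.50. The mean of 9 fibroblast markers overlapped between the lines, at 8.69 to 9.32 in Met1 and 7.87 to 9.44 in DB7. The part of these markers in the Egfr result was not tested.

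**Figure D1:**
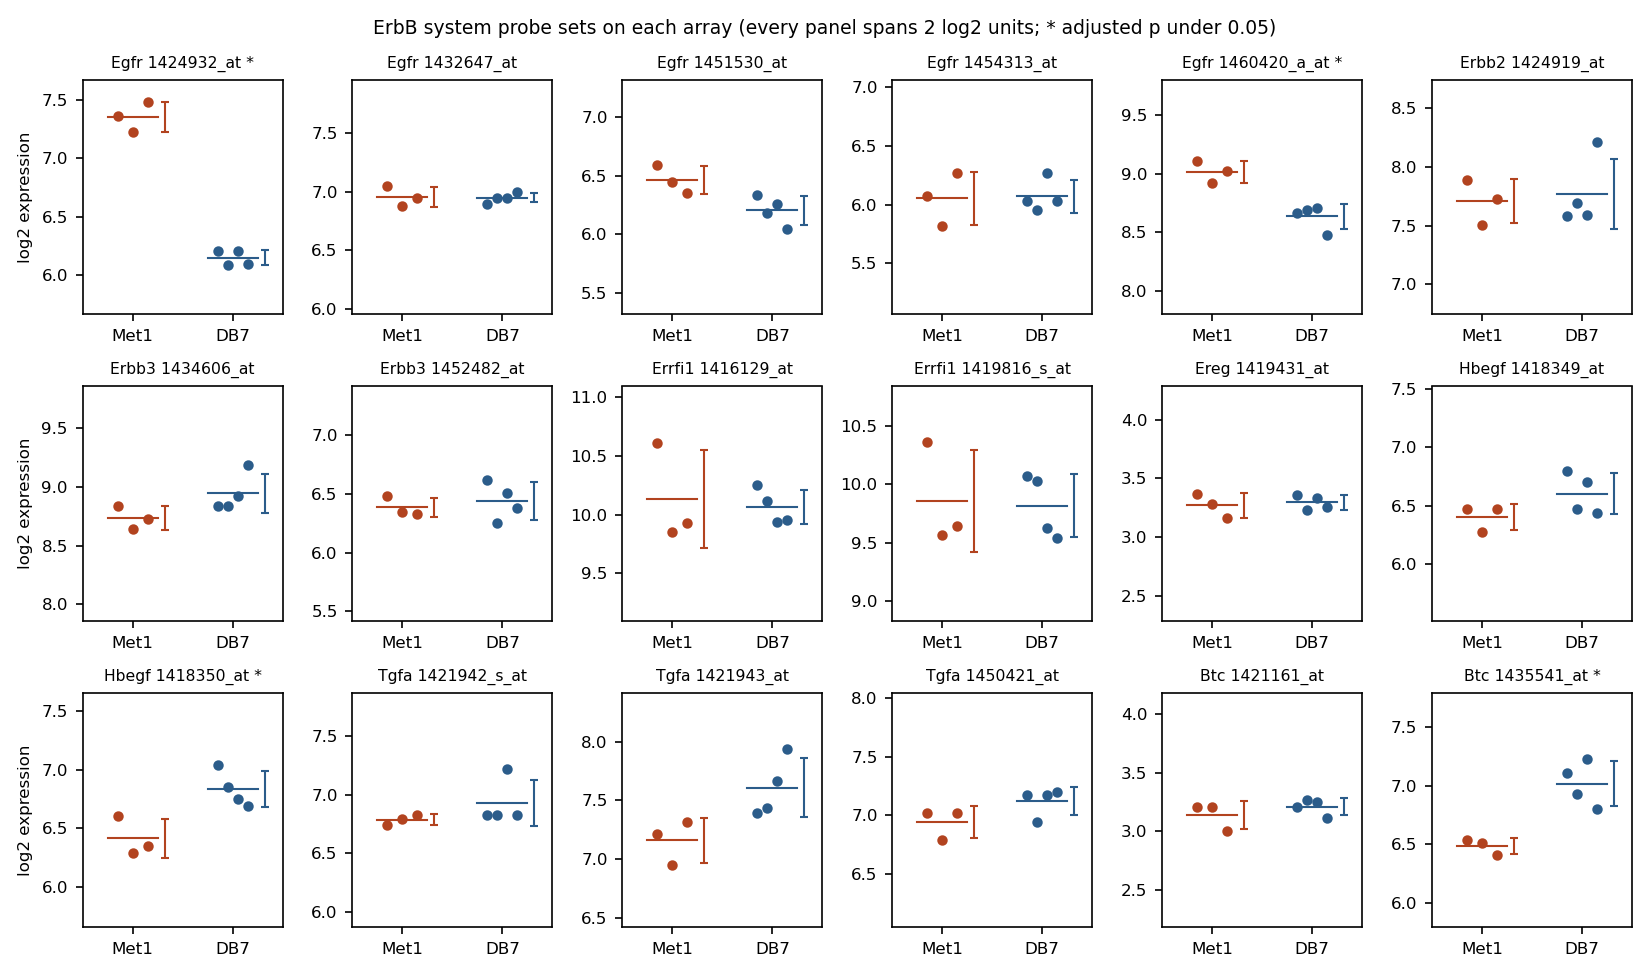
Log2 expression of the 18 probe sets of the ErbB system on each array, Met1 in red and DB7 in blue, with replicates from left to right. Horizontal lines are group means and bars are SD (n = 3 and 4). Egfr 1424932_at is the panel with the largest difference of means, and in the remaining 4 Egfr panels that difference ranges from -0.01 to 0.38.

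Erbb2, the receptor with no known ligand, was represented by 1 probe set. It read 7.89, 7.51 and 7.73 in Met1 and 7.58, 7.69, 7.59 and 8.21 in DB7, above the array median on every array. The groups overlapped, and the highest value was that of DB7 4. The difference was -0.06 with a 95% confidence interval from -0.42 to 0.31 (limma, adjusted p = 0.852).

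Erbb3, a neuregulin receptor whose own kinase is weak and which recruits PI3-kinase when paired, read 8.84, 8.64 and 8.73 in Met1 and 8.84, 8.84, 8.92 and 9.19 in DB7 by its brighter probe set, 1434606_at. The Met1 values lay at or below the lowest DB7 values, and DB7 4 was again the highest. The difference of -0.21 (SE 0.105; interval -0.45 to 0.02) did not pass in limma (adjusted p = 0.212). The dimmer probe set, 1452482_at, differed by -0.05 (interval -0.27 to 0.17).

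Errfi1 encodes MIG6, a feedback inhibitor that binds the kinase domain of ErbB receptors and is itself induced by their signalling. Probe set 1416129_at read 10.61, 9.85 and 9.93 in Met1 and 10.25, 10.12, 9.94 and 9.95 in DB7. Probe set 1419816_s_at read 10.36, 9.57 and 9.64 in Met1 and 10.07, 10.03, 9.63 and 9.54 in DB7. In both, Met1 1 was the highest of the 7 arrays and Met1 2 and Met1 3 lay at or near the low end, so the spread within a line exceeded the difference between the lines. The SD was 0.42 in Met1 and 0.15 in DB7 for the first probe set. The differences were 0.06 (interval -0.33 to 0.46) and 0.04 (interval -0.43 to 0.51).

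Betacellulin, the product of Btc, binds the EGF receptor and ErbB4. Its brighter probe set, 1435541_at, read 6.54, 6.51 and 6.41 in Met1 and 7.11, 6.93, 7.23 and 6.80 in DB7. Every DB7 array lay above every Met1 array. The difference was -0.53 (SE 0.109; limma, adjusted p = 0.00954), and the call was lost without Met1 replicate 3 (adjusted p = 0.0534). The Met1 values lay below the array median, while the DB7 values lay above it. Its other probe set, 1421161_at, was among the dimmest 2.9% of the array and differed by -0.07 (interval -0.23 to 0.09).

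HB-EGF, the product of Hbegf, is made as a membrane-bound precursor and released by shedding. Probe set 1418350_at read 6.6, 6.29 and 6.35 in Met1 and 7.04, 6.85, 6.75 and 6.69 in DB7. The groups did not overlap, although Met1 1 came close to the lowest DB7 array. The difference was -0.42 (SE 0.111; limma, adjusted p = 0.0299). This call did not survive the loss of most single arrays: it was kept in 2 of the 7 fits that left out 1 array, and adjusted p reached 0.128 without Met1 replicate 2. It was also lost without Met1 replicate 3 (0.121), DB7 replicate 1 (0.0505), DB7 replicate 2 (0.0561) and DB7 replicate 3 (0.0519), and without arrays DB7 1 and DB7 4 (0.0683). The second probe set, 1418349_at, read 6.47, 6.28 and 6.47 in Met1 and 6.80, 6.47, 6.70 and 6.44 in DB7, which overlapped. It differed by -0.20 (SE 0.108; adjusted p = 0.261). The mean of both probe sets differed by -0.31 (SE 0.098) and did not pass (limma on gene means, adjusted p = 0.0565), whereas that of the Btc probe sets did (-0.30, SE 0.081; adjusted p = 0.0294).

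TGF-alpha, the product of Tgfa, is a ligand of the EGF receptor that mammary epithelium makes itself. By its brightest probe set, 1421943_at, it read 7.21, 6.95 and 7.32 in Met1 and 7.39, 7.44, 7.67 and 7.94 in DB7. The groups did not overlap, and the difference of -0.45 (SE 0.146) did not pass in limma (adjusted p = 0.0648). It did pass without DB7 replicate 1 (0.0412), with array weights per group (0.0482) and under both filters on low values (0.0434 and 0.0451). The other probe sets differed by -0.14 (1421942_s_at) and -0.18 (1450421_at), and their groups overlapped.

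Epiregulin, the product of Ereg, was at the dim end of the array. Its single probe set read between 3.16 and 3.37 in the 7 arrays, below the array median on each, with a difference of -0.02 (interval -0.17 to 0.13). Detection calls were not used here, so whether such values exceed background is unknown.

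All 8 probe sets of the member ligands Ereg, Hbegf, Tgfa and Btc had a lower mean in Met1, beside 61.8% of all probe sets. Those of Tgfa cite 1 sequence record, as do those of Hbegf, so the 8 are not independent. Ligands outside the members went both ways: Egf differed by 0.24 and Nrg4 by 0.01, Epgn by -0.25 and Nrg3 by -0.14 in each of its probe sets. The count was 7 of 8 under quantile normalization and under median centring, where 53.9% and 52.6% of all probe sets lay below 0. The ligands' median difference was -0.188, and -0.154 and -0.151 under those scalings.

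**Figure D2:**
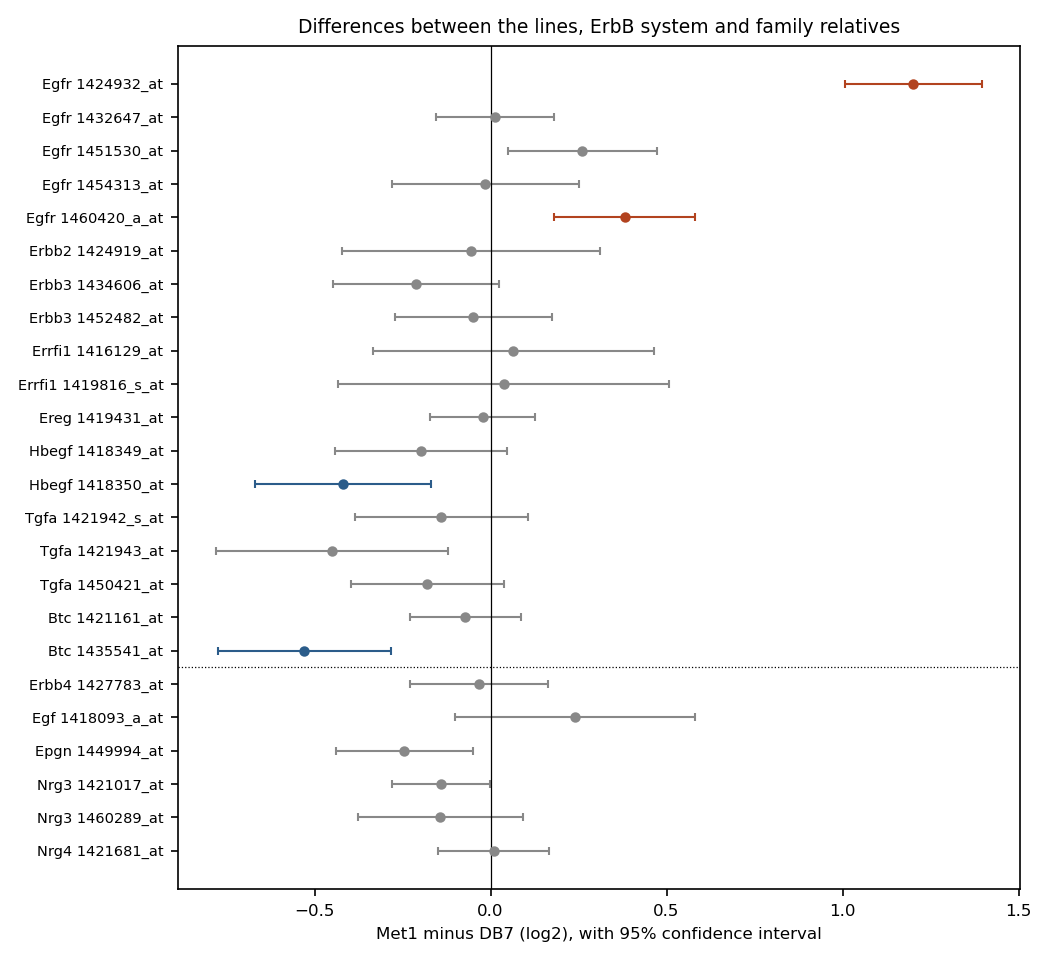
Difference between the lines for each probe set on the log2 scale, with limma's 95% confidence interval; red and blue mark those higher and lower in Met1 at an adjusted p under 0.05, and grey the rest. Below the dotted line are family genes outside the 10, of which 0 passed.

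Of the other family genes, 5 of 6 were measured and 0 passed in limma, beside 18.9% of all genes. Erbb4, the remaining receptor, read 2.74 to 3.12 in Met1 and 2.89 to 2.98 in DB7. It lay below the array median on every array, as did both probe sets of the neuregulin gene Nrg3 and that of Nrg4. Egf differed by 0.24 (SE 0.151; adjusted p = 0.333). Epgn encodes epigen and lies next to Ereg, Areg and Btc in the gene order of chromosome 5. It read 6.43, 6.26 and 6.22 in Met1 and 6.61, 6.41, 6.6 and 6.59 in DB7, which overlapped narrowly, with a difference of -0.25 (SE 0.086; adjusted p = 0.0844).

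Erbb2 sits in a gene-dense stretch of chromosome 11 that is often amplified together in human breast cancer. Of 19 measured neighbours, 2 were higher and 2 lower in Met1, near the share of all genes called (18.9%, of which 8.25% higher and 10.7% lower), and the list's median difference was -0.012 beside -0.049 over all genes. On one side of Erbb2 the nearest measured genes differed in opposite directions. Mien1, the next gene after Erbb2, was higher by 0.47 (SE 0.133; limma, adjusted p = 0.0387). Its groups overlapped, since DB7 2 read 9.39 and Met1 2 read 9.38. Grb7, 2 genes away and coding for an adaptor that binds ErbB receptors, was lower, at a difference of -0.53 (SE 0.125; adjusted p = 0.0175). Stard3, a cholesterol transporter gene 4 genes away on the other side, was lower (-0.51, SE 0.077, adjusted p = 0.00205), and Stac2, 11 genes away, was higher by 1.44 (SE 0.123; adjusted p = 9.73e-05). Tcap and Pnmt, between Stard3 and Erbb2, differed by -0.01 and -0.06 without passing.

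Over the pathway lists together, 13 of 96 measured genes were higher and 6 lower in Met1, beside 8.25% and 10.7% of all genes. Of 18 measured adaptors, which carry the signal from the receptors, 3 were higher and 2 lower against the same shares, with a median of -0.125. Grb2 links the receptors to Ras. It read 9.36, 9.15 and 9.16 in Met1 and 9.92, 10.10, 10.08 and 10.13 in DB7, with no overlap and a difference of -0.83 (SE 0.090; limma, adjusted p = 0.000338); its other probe set differed by -0.25. Sos2, an exchange factor that Grb2 brings to Ras, was higher by 0.86 (SE 0.154; adjusted p = 0.00503).

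Pik3r1, the regulatory subunit through which PI3-kinase docks on receptors, was higher in Met1 by all 3 of its probe sets, by 0.94 to 1.62. The brightest read 9.03, 8.38 and 8.38 in Met1 and 7.58, 7.63, 7.83 and 7.61 in DB7. Its Met1 values lay far above the DB7 values, with Met1 1 the highest. Stat3, a transcription factor that the EGF receptor can activate, was higher by 0.44 (SE 0.086; adjusted p = 0.00816) by the brightest of its 3 probe sets, the only one that passed.

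Genes of receptor uptake and sorting, the route by which an activated EGF receptor is internalised and degraded, included 5 higher and 0 lower in Met1 of 17 measured. The background was 8.25% of genes higher and 10.7% lower, and the list's median was 0.166. Hgs, a sorting protein that passes ubiquitinated receptors towards the lysosome, read 10.33, 10.17 and 10.10 in Met1 and 9.53, 9.33, 9.28 and 9.42 in DB7. This was a difference of 0.81 without overlap (SE 0.093; limma, adjusted p = 0.000482). Clta, a clathrin light chain, was higher by 0.57, and Ap2m1, a subunit of the clathrin adaptor, by 0.43. Eps15, an endocytic substrate of the EGF receptor, was higher by 0.49 by its brighter probe set and differed by 0.10 by the other. Stam2, a partner of Hgs, differed by -0.0038 by its brightest probe set, while another of its 5 was lower (-0.53), so the count is one-sided only by brightest probe sets. The clathrin heavy chain gene Cltc differed by 0.01 (adjusted p = 0.978; chosen after its value was seen).

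Of 16 negative regulators, 0 were higher and 1 was lower in Met1 by the brightest probe set, beside 8.25% and 10.7% of all genes, with a median of 0.022. The 1 was Lrig1, a membrane protein that promotes the degradation of ErbB receptors. It read 8.09, 7.79 and 7.96 in Met1 and 8.43, 8.69, 8.80 and 8.61 in DB7, a difference of -0.69 without overlap (SE 0.110; limma, adjusted p = 0.0028). Of its 3 probe sets 2 passed, and the range was -1.0 to -0.11. Socs5, a suppressor of cytokine signalling that also promotes EGF receptor degradation, differed by 0.07 by its brighter probe set and was higher by 1.29 by the other.

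None of the 10 measured genes of ligand shedding passed by its brightest probe set, beside 18.9% of all genes, and their median was 0.067. In limma, 3 of them had an unadjusted p under 0.05, not all in 1 direction. The share of all genes at that threshold was not counted here, so the 3 cannot be set against a background. Adam17, the main sheddase of TGF-alpha and HB-EGF, differed by 0.23 (SE 0.085; adjusted p = 0.101) and the protease gene Bace1 by 0.31 (SE 0.098; adjusted p = 0.0583). Adam8, a relative of Adam17, differed by -0.40 (SE 0.158; adjusted p = 0.12). Another probe set of Adam17 was higher by 0.38 and another of Bace1 by 0.53.

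Of 12 measured receptor partners 3 were higher and 2 lower in Met1, beside 8.25% and 10.7% of all genes, with a median of 0.057. Muc1, a mucin known to bind ErbB receptors, was higher in Met1 by 1.64 (SE 0.199; adjusted p = 0.000625), and Dlg1, a scaffold protein, by 0.46. Cd9, a tetraspanin that associates with the HB-EGF precursor, read 10.20, 10.38 and 10.16 in Met1 and 11.02, 11.12, 10.96 and 11.16 in DB7. The difference was -0.82 (SE 0.088; limma, adjusted p = 0.000329). Cd44, which can present HB-EGF on the cell surface, was lower too (-0.67).

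**Figure D3:**
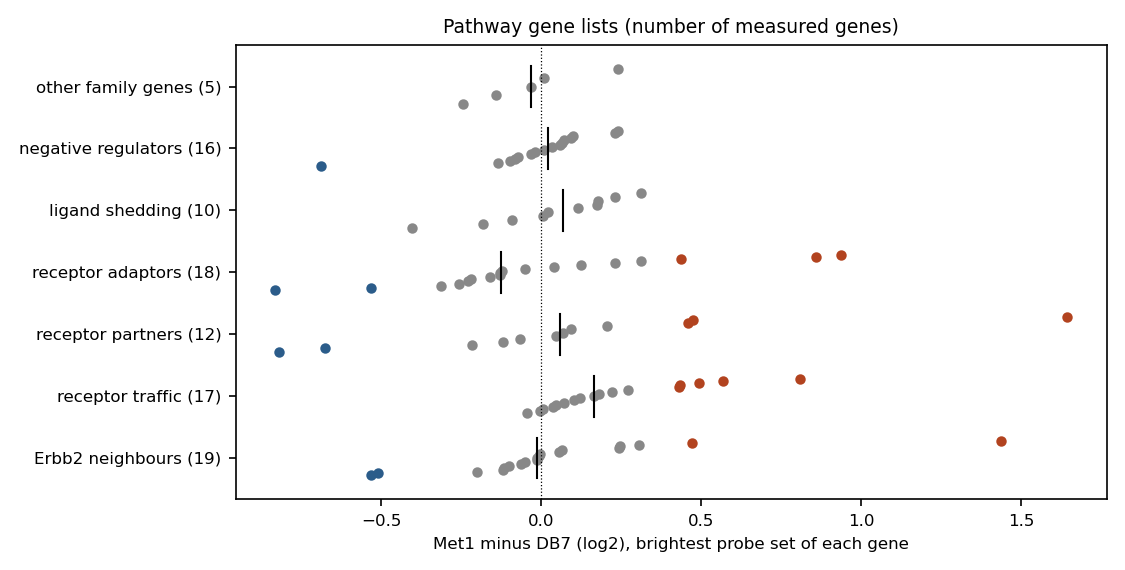
Difference between the lines for the brightest probe set of each gene in the pathway lists, on the log2 scale; red and blue mark genes higher and lower in Met1 at an adjusted p under 0.05, and black bars are list medians. Receptor traffic has 5 red and 0 blue points of 17, and Grb7 appears in both the adaptor and the neighbour list.

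Feedback genes of the ERK pathway, which ErbB signalling induces, were lower in Met1 for Etv4 (-0.67), Etv5 (-0.50 and -0.54) and the ERK phosphatase gene Dusp6 (-1.03; limma, adjusted p = 0.00809). Of all genes 10.7% were lower. Spry2 differed by 0.06 and -0.12, and Spry1 and Spry4, from the list of negative regulators, by 0.01 and -0.03, and none of these passed. Errfi1, induced by the same pathway, differed by no more than 0.06.

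No member met the rule for naming genes of similar pattern, a 2-fold difference by the brightest probe set. For Egfr 1424932_at, chosen after its values were seen, the nearest of 12392 genes were Mcrip1, Trim46 and Cav2. Their values, centred on each gene's mean, departed from those of Egfr by a root-mean-square of 0.105, 0.117 and 0.119 over the 7 arrays. Their differences between the lines were 1.17, 1.03 and 1.28. All values come from the same 7 arrays, and any gene with a gap of this size and little spread within the lines would lie near.

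**Figure D4:**
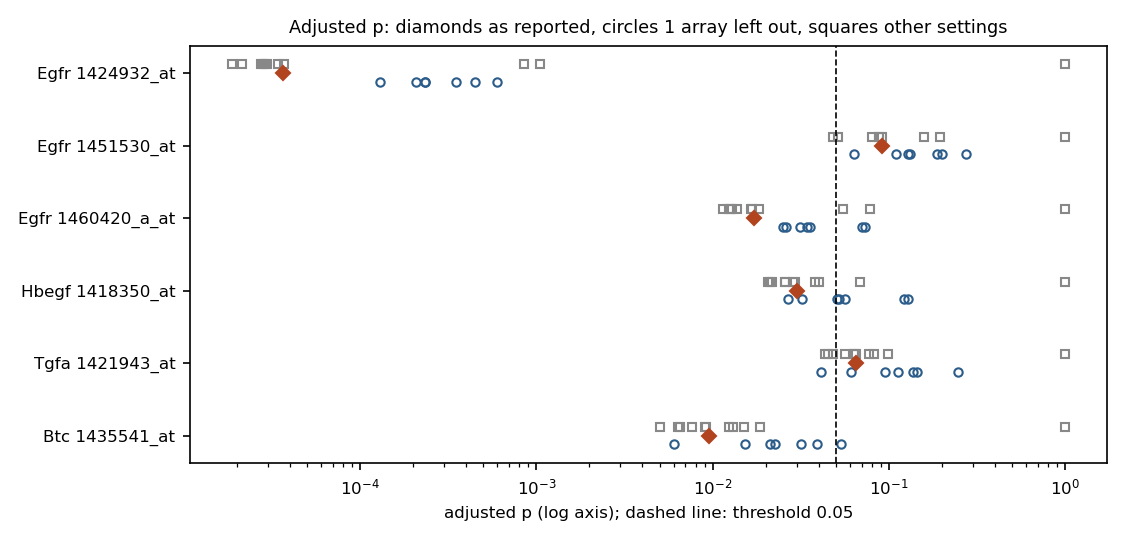
Adjusted p on a log axis for the 6 member probe sets with an unadjusted p under 0.05, as reported (diamonds), with 1 array left out (circles) and under the other settings (squares); the dashed line is 0.05. Egfr 1424932_at is left of the line in all circles, with adjusted p between 0.00013 and 0.0006, whereas Hbegf has 5 of its 7 circles to the right.

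Across the series, correlations between arrays were 0.994 to 0.996 within Met1, 0.986 to 0.992 within DB7 and 0.967 to 0.972 between the lines. The median within-line SD of the 18 probe sets was 0.12 in Met1 and 0.151 in DB7, beside 0.087 and 0.133 for all probe sets. Of 12 luminal epithelial markers 8 lay above the array median on every array and 0 below it on every array. These markers were not alike between the lines: 3 were higher in Met1 and 5 lower, against 8.25% and 10.7% of all genes. Cldn7, for example, differed by 4.40 and Krt7 by -1.79. Lymphocyte markers had a mean of 6.79 in DB7 1 and 6.83 in DB7 4, against 5.73 to 6.08 in the other arrays. Egfr 1424932_at and Btc 1435541_at kept their calls without arrays DB7 1 and DB7 4 (differences of 1.20 and -0.59). Egfr 1460420_a_at and Hbegf 1418350_at lost theirs (limma, adjusted p = 0.055 and 0.0683).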

How the data were processed

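Total RNA of frozen tumours, extracted with Trizol, was biotin-labelled and measured on 1-colour Affymetrix arrays, per the labels' protocols. The authors deposited 1 value per probe set and array, taken here as log2 because of its range. Both RMA and MAS5 appear in the submitters' processing notes, with no statement of which made the table. No version, background correction or detection call was stated in the sources used here. How the summary treats dim probe sets is therefore unknown. Array medians lay between 6.53 and 6.61, and values were used as deposited.

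Of 22690 probe sets, 64 controls were left out. Of the remaining 22626, GEO's platform annotation gave 1 symbol to 20380, several to 691 and none to 1555; 0 symbols differed from RefSeq (GRCm38.p6). All 22626 were tested, with no filter on low values, so that no gene was tested only because 1 line was bright. The comparison used limma 3.58.1 in R 4.3.3 (lmFit on all 7 arrays with the line as sole term, eBayes with intensity trend, two-sided). Benjamini-Hochberg adjustment ran over all probe sets, at a threshold of 0.05. In lists and counts of genes, each gene was represented by its brightest probe set (highest mean of all arrays). The fit was tested on simulated data.

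The 10 genes and all lists were chosen with earlier results of these data known. Named were all members, the other family genes, up to 4 called genes per pathway list with the smallest p, and 4 ERK feedback genes. Adam17, Adam8, Bace1, Socs5, Stam2, Cltc, Spry1, Spry4, Tcap, Pnmt and the cell type markers were named after their values were seen. Genes of similar pattern were to be named for members called at 2-fold or more.

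Alternatives covered normalization, 2 filters on low values, the variance model, a 2-fold minimum, cross-hybridising probe sets, gene means, each array left out, DB7 1 and DB7 4 left out together, and the replicate number as a block. Precision is limited by how few arrays there are.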

Additional observations from a re-analysis of the deposited data

Results flagged for a closer look

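In 2 of the 18 probe sets a single DB7 array stood apart from the other 3 by Dixon's test at its 95% critical value for 4 samples, both for Tgfa. Probe set 1421942_s_at read 7.22 in DB7 3, against 6.83 in each of the other DB7 arrays. Probe set 1450421_at read 6.94 in DB7 2, against 7.17 to 7.20 in the others. The array that stood apart differed between the 2 probe sets. Chance flags about 1 in 20 such groups when values have no ties. In 1421942_s_at the other 3 values were tied, where any departure gives the highest possible ratio, so that rate does not apply to it.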

How the results depend on the processing

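Egfr 1424932_at passed under 17 of 18 alternatives, with a difference of 1.14 to 1.27, and Btc 1435541_at under 16 of 18 (-0.60 to -0.46). Egfr 1460420_a_at passed under 13 and Hbegf 1418350_at under 11. These counts include the 2 filters on low values. The first kept probe sets above the array median on at least 3 arrays. Egfr 1424932_at met it only through Met1 and Btc 1435541_at only through DB7. The second used the mean of all arrays, which the brighter line raises. For these 2 probe sets, passing under the filters is therefore not separate support. No call changed direction. Against a 2-fold minimum, 0 of the 18 probe sets passed, so 0 were higher and 0 lower, with 0 of 96 pathway genes and 160 probe sets of the array. Of the 18, without arrays DB7 1 and DB7 4, 2 passed, 1 higher and 1 lower, and with 1 array left out 1 to 4 did (1 to 2 higher, 0 to 2 lower). Calls over the array then ranged from 2432 without Met1 replicate 3 and 2496 without Met1 replicate 2 to 4135, against 4027 with all arrays. Egfr 1451530_at passed under quantile normalization (adjusted p = 0.0481). The replicate block kept 3 calls, 1 of them higher, since Egfr 1460420_a_at was lost. Same-numbered arrays did not deviate together (correlations of deviations of -0.17, -0.02 and 0.05). So few correlations cannot settle whether the numbers pair the samples, and the labels do not say. The causes were not tested. In limma on the 7 arrays, Hbegf 1418350_at (adjusted p = 0.0299) and Tgfa 1421943_at (0.0648) lay near the threshold, with SEs of 0.111 and 0.146. Size alone did not set this. The smaller difference of Egfr 1460420_a_at (0.38, SE 0.089) had an adjusted p of 0.0171.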
